A study of Homo sapiens with 121 samples.

Results

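The 5 RNAs described here are BCYRN1, MIR663A, LINC00824, TNFAIP8L2-SCNM1 and SERF2-C15ORF63, out of 25610 rows of a table of gene expression in 121 single human embryonic stem cells (hESCs). They were chosen by their values: of 6213 rows with a mean TPM of 10 or more, they had the 5 largest differences between cells with short and cells with long telomeres. Their difference between these groups is therefore a description and supports nothing. TPM is an expression unit scaled for gene length and to a fixed total per cell. All 5 passed that filter on the mean, but in long cells alone the mean TPM was 0.777 for MIR663A, 4.92 for LINC00824 and 6.42 for TNFAIP8L2-SCNM1, so these 3 passed it through the other cells, whereas SERF2-C15ORF63 had 16.6 and BCYRN1 148. Just inside that limit lay MIR663A at 2.40 on the log2(TPM + 1) scale, and just outside it lay XKR9 at 2.35 and CCL5 at 2.33.

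All cells came from the hESC line WA26, grown in E8 medium on Matrigel without feeder cells. The line was passaged with EDTA and an additive that the study calls Rocki, and no experimental treatment of these cells is named. Polyadenylated RNA of each cell was pulled down with biotinylated oligo-dT and made into cDNA by Smart-seq2, while the genomic DNA of the same cell served for a measurement of telomere length. By its sample title each cell belongs to 1 of 3 groups, with 81 long, 25 medium and 15 short telomere cells. No separate culture, clone or batch is named, so each group counts as 1 sample, cells are not replicates and no p-value was computed.

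BCYRN1 encodes BC200 RNA, a small cytoplasmic RNA made by RNA polymerase III whose first portion derives from an Alu element and which is known from neurons and tumours as a repressor of translation. MIR663A is the gene of a GC-rich primate microRNA. LINC00824 is a long intergenic non-coding RNA with no established role. The remaining pair are read-throughs, in which transcription runs from one gene into the next and the exons of both are spliced into one RNA. TNFAIP8L2-SCNM1 joins TNFAIP8L2, an inhibitor of immune signalling, to SCNM1, a splicing factor. SERF2-C15ORF63 joins SERF2, a small protein linked to protein aggregation, to HYPK, formerly C15ORF63, a partner of the N-terminal acetyltransferase complex NatA.

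The mature microRNA is shown because its seed, the part that pairs with targets, sets it apart from other microRNAs. The sequence is from RefSeq (GRCh38.p14), and capitals mark the seed, bases 2 to 8. hsa-miR-663b and hsa-miR-3652 belong to 2 other microRNA rows described further on.
hsa-miR-663a: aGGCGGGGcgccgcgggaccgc
hsa-miR-663b: gGUGGCCCggccgugccugagg
hsa-miR-3652: cGGCUGGAggugugagga

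BCYRN1 lies on chromosome 2 (GRCh37, plus strand), within the divergent transcript EPCAM-DT. The mature miR-663a is 22 bases long with a GC content of 90.9%, and its 1 exact match is at chr20:26188879-26188900 (GRCh37) on the minus strand, inside the host gene MIR663AHG. The 3 seeds printed above differ from each other. LINC00824 covers chr8:129417515-129576925 on the minus strand and overlaps no other annotated gene. The genes joined by TNFAIP8L2-SCNM1 together cover chr1:151129125-151142772 and those joined by SERF2-C15ORF63 cover chr15:44069285-44096625, both on the plus strand. In RefSeq, the window from 250 bases before to 50 after the start of TNFAIP8L2-SCNM1 is letter for letter that of TNFAIP8L2, and that of SERF2-C15ORF63 equals 1 of the 3 windows of SERF2.

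The reads were 50 bases long, so 50-base windows of these RNAs were searched for on both strands of the GRCh37 chromosomes, allowing 2 mismatches. Each window lay within 1 exon, so sequence across splice junctions, where a read-through can differ from its joined genes, was not searched. For MIR663A only the windows that hold the whole mature sequence were used. Of the 151 windows of BCYRN1, 150 matched more than 1 place, with a median of 15 places and up to 152, and 148 had an exact second copy. All 29 windows that hold miR-663a and all 406 windows of the TNFAIP8L2-SCNM1 exons had 1 place each. In LINC00824, 85.6% of 3855 windows had 1 place, and in SERF2-C15ORF63 81.1% of 5027. The remaining 555 windows of LINC00824 matched up to 83986 places each, and the remaining 948 of SERF2-C15ORF63 up to 69326. Parts of these 2 RNAs thus also lie in repeated sequence, and its part in their values was not tested. The value of BCYRN1 thus belongs to a sequence shared by many copies, and the sources differ on how its reads were counted: the study's methods name HTSeq with default settings, the submitters' processing notes RSEM.

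The read-throughs share their exons with the genes they join. GENCODE holds 1 transcript that spans TNFAIP8L2 and SCNM1, and all of its 749 exonic bases are also exons of other transcripts of the pair. For SERF2 and HYPK, 6 spanning transcripts hold 5370 exonic bases, of which 94.5% occur in other transcripts of the pair. The split of reads between these rows and the joined genes is therefore uncertain.

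The libraries differed in the number of genes above TPM 1, which averaged 8296 ± 2152 (SD across cells) for long, 7980 ± 2070 for medium and 5784 ± 2355 for short telomere cells. Only short telomere cells, 4 of them, had 4000 or fewer genes, and 12 of 15 short but 30 of 81 long cells had 8000 or fewer. POU5F1 and LIN28A, which mark hESCs, were above TPM 1 in all 121 cells, DNMT3B in 118, NANOG in 116 and SOX2 in 113. All 5 of these markers were lower in short than in long cells, as were 90.9% of the 6213 rows, whose median difference was -1.40. NANOG (carried by 80 of 81 long and 11 of 15 short cells) differed by -3.21 and DNMT3B by -1.95 on the log2(TPM + 1) scale. SOX2 at -1.25, POU5F1 at -0.93 and LIN28A at -0.29 lay above that median. In cells with 8000 or fewer genes LIN28A differed by 0.12 and the other markers by -3.40 to -0.79, beside a median of -1.03. The part of these markers in the results below was not tested. Of 12 markers of differentiated or feeder cells, 9 ever exceeded TPM 1, and SOX17, T and DCN did so in 1 cell each. Over all cells 0 of the 12 were higher in short cells. Only PAX6, COL1A1 and COL1A2 were above TPM 1 in at least 10 cells, namely in 33, 21 and 77. Among all rows above TPM 1 that often, 21.4% were higher in short cells. The other markers were nearly or fully absent in all groups, so that share is no background for them. With 8000 or fewer genes PAX6 differed by 0.06. With more than 8000 genes, where only 3 short cells remain, COL1A1 differed by 1.16 and COL1A2 by 0.18. The rest were not higher in either range. The summed TPM of the 12 ranged from 0 to 195.2 in short and from 0 to 162.3 in long cells, and GATA6 and LUM were at 0 throughout. The summed TPM of 12 mitochondrial-like rows ranged from 2645 to 69456 in long cells and from 4590 to 232724 in short cells. Short cells 8 and 12 lay above every long cell in this sum, at 204968 and 232724. The values hold no read numbers, and sequencing depth per cell is thus unknown.

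Cells in which a row exceeds TPM 1 are called carriers here. BCYRN1 had carriers in every group, namely 70 of 81 long cells, 23 of 25 medium cells and 14 of 15 short cells. Its TPM ran from 0 through a median of 48.8 to 1782 in long cells, from 0 through 47.3 to 2944 in medium cells, and from 0 through 332 to 4151 in short cells. The groups overlapped over nearly their whole range, with 2 short cells above every long cell. What set the short cells apart was the level among carriers, since the share of carriers differed by 6.91 percentage points. Long cells averaged 5.42 ± 2.70 on the log2(TPM + 1) scale, medium cells 5.79 ± 2.90 and short cells 7.93 ± 2.96, a short minus long difference of 2.52, and in 76.8% of short-long pairs the short cell was the higher.

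MIR663A was the sparsest of the 5 RNAs. It was carried by 2 of 81 long cells (2.47%, exact 95% interval 0.30 to 8.64%), 0 of 25 medium cells (0 to 13.7%) and 6 of 15 short cells (40.0%, 16.3 to 67.7%). These intervals cover the counting of cells only. The 2 long carriers stood at 26.4 and 36.5 TPM, whereas the 6 short carriers ranged from 3.76 to 6449 TPM. Short cell 6, at 6449, held 91.0% of the summed TPM of this row over all cells, and short cells 8 and 7 followed at 463 and 81.9. The group means of log2(TPM + 1) were 0.12 ± 0.78 in long and 2.53 ± 3.95 in short cells, a difference of 2.40 that fell to 1.68 without short cell 6. The mature microRNA has no poly(A) tail, and the table does not tell a precursor from other RNA of the locus.

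LINC00824 was carried by 30 of 81 long, 9 of 25 medium and 9 of 15 short cells. Most carriers were low, with a median of 2.94 TPM among long and 3.72 among medium carriers, against 204 among short carriers. The highest long cell reached 106.5 TPM and the highest medium cell 218.0. Short cells 6, 12 and 8 reached 2591, 1748 and 1734 TPM, above every other cell, and held 84.3% of the summed TPM. At the other end, 5 short cells were at 0. Mean log2(TPM + 1) amounted to 1.06 ± 1.61 for long, 1.25 ± 1.92 for medium and 4.05 ± 4.39 for short cells, a short minus long difference of 2.99. Without short cells 8 and 12, those high in mitochondrial-like rows, this difference was 1.95.

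TNFAIP8L2-SCNM1 had the largest difference of the 5 and the widest gap in the share of carriers, 55.3 percentage points. Carriers made up 20 of 81 long (24.7%, exact 95% interval 15.8 to 35.5%), 4 of 25 medium (16.0%, 4.54 to 36.1%) and 12 of 15 short cells (80.0%, 51.9 to 95.7%). TPM had a median of 0 in long and in medium cells and of 21.8 in short cells, with highest values of 122.9, 44.6 and 383.3. The groups overlapped, with 2 short cells above every long cell and 3 at 0. On the log2(TPM + 1) scale the means were 1.01 ± 1.89 for long, 0.60 ± 1.48 for medium and 4.30 ± 2.74 for short cells, a short minus long difference of 3.29, and the short cell was higher in 74.8% of short-long pairs.

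SERF2-C15ORF63 had a share of carriers that increased from long through medium to short cells, at 33 of 81 (40.7%), 14 of 25 (56.0%) and 10 of 15 (66.7%). The exact 95% intervals of these shares, 29.9 to 52.2%, 34.9 to 75.6% and 38.4 to 88.2%, overlapped. TPM had medians of 0, 7.09 and 81.5 in the 3 groups and highest values of 176.1, 175.1 and 304.4. Every short carrier was at 11.6 TPM or more, whereas 5 short cells were at 0. The mean log2(TPM + 1) was 1.90 ± 2.51, 2.87 ± 2.87 and 4.49 ± 3.45, a short minus long difference of 2.59.

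**Figure D1:**
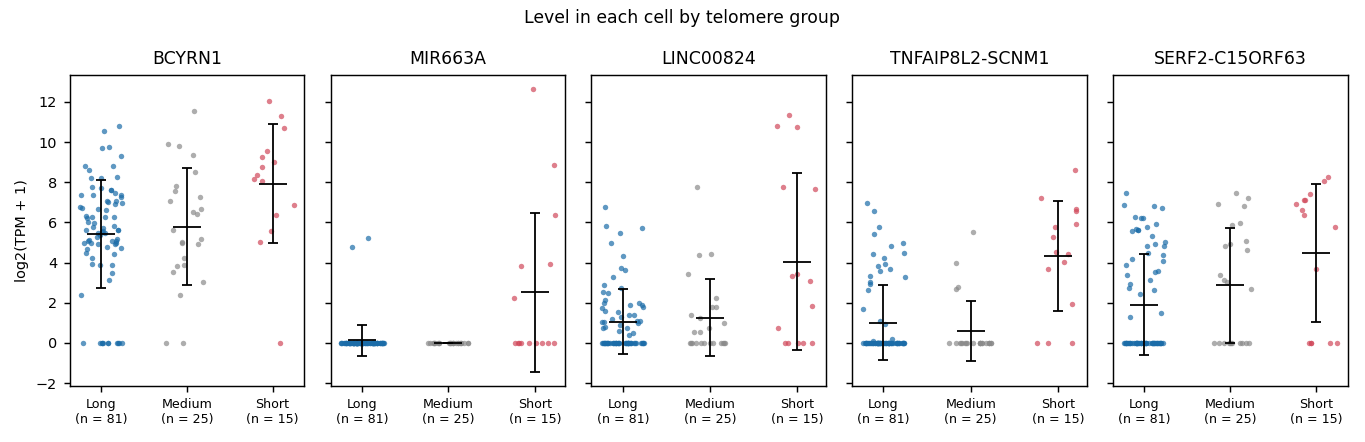
Level of each RNA, as log2(TPM + 1), in each cell (points) of the long, medium and short telomere groups, with the mean (bar) and SD across cells (whiskers, which run below 0 where many cells are at 0). BCYRN1 fills all groups, MIR663A is above 0 in 2 long and 6 short cells, and the short cells spread widely in all 5 panels.

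Across the 6213 rows, 106 (1.71%) were at least 1 higher on the log2 scale in short than in long cells, and the median difference was -1.40. The 5 members are among these 106 by their choice. Medium cells entered the choice only through the filter on the mean TPM, which was taken over all cells. Medium minus long was 0.98 for SERF2-C15ORF63, 0.38 for BCYRN1, 0.19 for LINC00824, -0.12 for MIR663A and -0.41 for TNFAIP8L2-SCNM1. None of the 5 reached a difference of 1, as 0.660% of all rows did, and the median over all rows was -0.14. The long cells enter both contrasts.

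The number of genes above TPM 1 moved with the telomere group, so the comparison was made again within cells of similar gene number. In cells with 8000 or fewer genes, 30 long and 12 short, the short minus long differences were 3.57 for LINC00824, 2.86 for TNFAIP8L2-SCNM1, 2.67 for SERF2-C15ORF63, 2.50 for MIR663A and 2.46 for BCYRN1. All 5 were above 1 there, as were 3.90% of all rows, and these cells are among those the choice used. TNFAIP8L2-SCNM1 was carried by 12 of these 30 long (40.0%) and 10 of 12 short cells (83.3%), and SERF2-C15ORF63 by 15 of 30 (50.0%) and 9 of 12 (75.0%). LINC00824 was carried by 12 of 30 and 9 of 12, and MIR663A by 2 of 30 and 5 of 12.

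Only 3 short cells had more than 8000 genes. Among these and the 51 long cells of that range, BCYRN1 differed by 2.68, TNFAIP8L2-SCNM1 by 2.63 and MIR663A by 1.28. LINC00824 and SERF2-C15ORF63 turned to the other side, at -0.81 and -0.24. LINC00824 was at 0 in all 3 short cells, while 18 of the 51 long cells carried it. Of all rows, 6.94% were at least 1 higher in the short cells of this range.

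**Figure D2:**
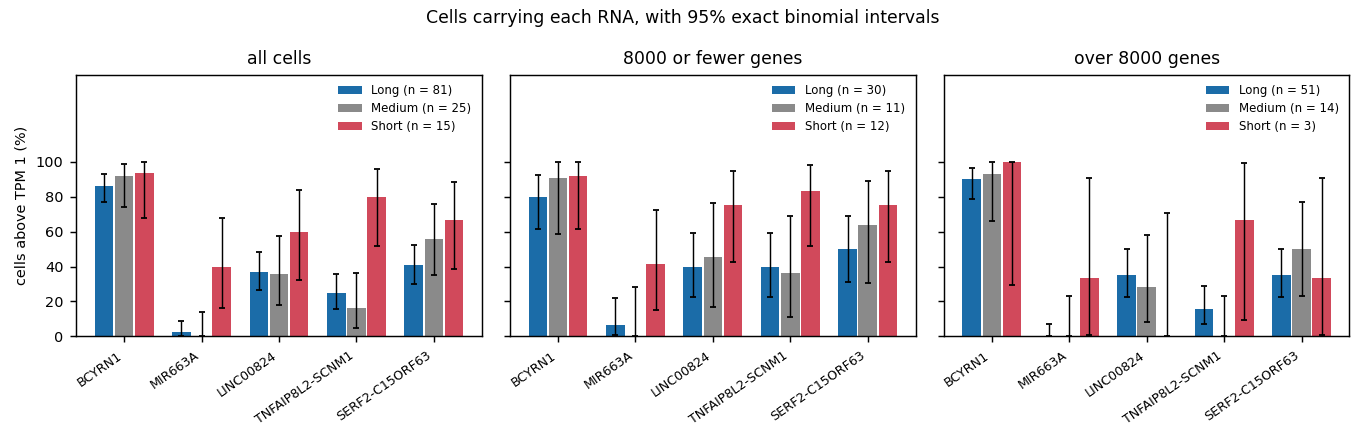
Percentage of cells above TPM 1 for each RNA in long, medium and short telomere cells, over all cells and on either side of 8000 genes above TPM 1, with exact 95% binomial intervals (whiskers). TNFAIP8L2-SCNM1 has 80.0% carriers in short against 24.7% in long cells, and the panel with more than 8000 genes holds only 3 short cells.

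A finer division held fewer cells. Between 4000 and 6000 genes there were 16 long and 4 short cells. TNFAIP8L2-SCNM1 was carried by 7 of the 16 long and 4 of the 4 short cells, LINC00824 by 5 and 4, and SERF2-C15ORF63 by 10 and 3. BCYRN1 was carried by 15 and 4, and MIR663A by 2 and 3. Against the 25 long cells nearest to the short cells in gene number, whose mean was still higher at 6856 genes, the short minus long difference of SERF2-C15ORF63 was 1.12 in place of 2.59 and that of BCYRN1 1.64 in place of 2.52. The other 3 RNAs lay between 2.34 and 2.75 in that setting.

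Over all 121 cells, each of the 5 RNAs was lower in cells with more genes, a direction shared by 13.2% of all rows, whose median Spearman's rho was 0.32. Spearman's rho was -0.44 for TNFAIP8L2-SCNM1, -0.37 for SERF2-C15ORF63, -0.25 for MIR663A, -0.24 for LINC00824 and -0.14 for BCYRN1. The points are cells of 1 line, the gene number is read from the same values, and the telomere groups differ in it. The 5 RNAs were chosen for being higher in short cells, which had fewer genes, so their shared direction follows in part from the choice. Within long cells rho was -0.36 for TNFAIP8L2-SCNM1, -0.22 for SERF2-C15ORF63 and -0.05 for BCYRN1. Within short cells SERF2-C15ORF63 had -0.63, with carriers in all 4 short cells of 4000 or fewer genes, whereas BCYRN1 had 0.30. Over all cells and within long cells BCYRN1 had the weakest relation of the RNAs given here, and the part of gene number in the group differences was not tested.

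**Figure D3:**
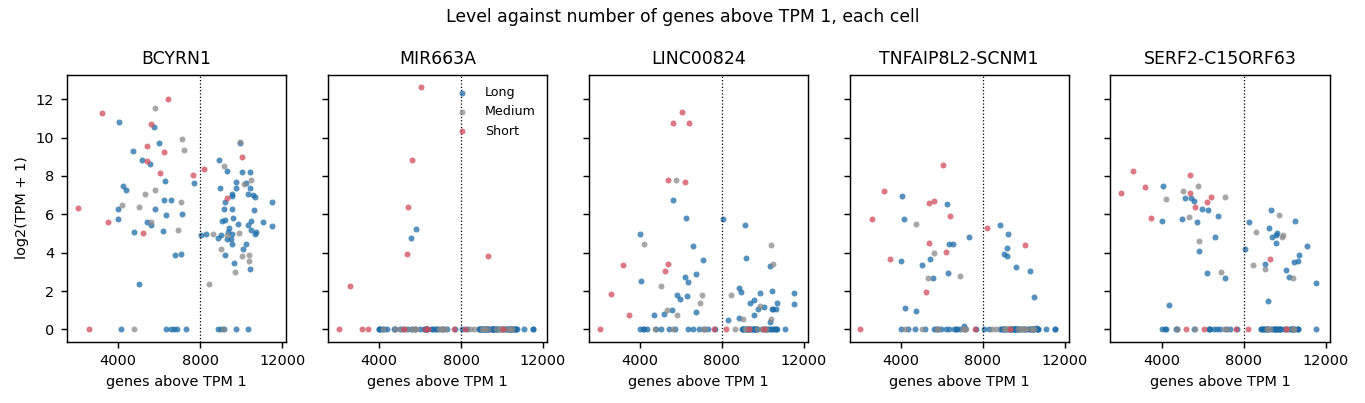
Level of each RNA, as log2(TPM + 1), against the number of genes above TPM 1 in each cell, coloured by telomere group, with a dotted line at 8000 genes. The 3 highest LINC00824 cells are short cells left of the line, while TNFAIP8L2-SCNM1 (rho -0.44) and SERF2-C15ORF63 (rho -0.37) thin out to the right.

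Of the 5 RNAs, long cells carried a median of 2, medium cells 2 and short cells 4. The 5 were chosen for being higher in short than in long cells, so larger counts in short cells follow largely from the choice. The counts by group below are therefore descriptions and support nothing. At least 3 were carried by 23 of 81 long (28.4%), 8 of 25 medium (32.0%) and 11 of 15 short cells (73.3%), and within 8000 or fewer genes by 12 of 30 long (40.0%) and 10 of 12 short cells (83.3%). All 5 were carried by short cells 7, 8 and 11 and by 0 long or medium cells. All 9 short carriers of LINC00824 also carried TNFAIP8L2-SCNM1, which 12 of 15 short cells carried. Over all cells the pair shared 15 cells, 31.2% of the 48 LINC00824 carriers and 41.7% of the 36 TNFAIP8L2-SCNM1 carriers, near the 29.8% and 39.7% of all cells that carried TNFAIP8L2-SCNM1 and LINC00824. Of the 57 SERF2-C15ORF63 carriers, 98.2% carried BCYRN1, which 88.4% of all cells carried.

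Levels differed among cells that carried several of the RNAs. Short cell 6 was highest of all cells for MIR663A, LINC00824 and TNFAIP8L2-SCNM1 but was at 0 for SERF2-C15ORF63 and had 288 TPM of BCYRN1. Short cell 12 was highest for BCYRN1 at 4151 TPM and was at 0 for MIR663A. Short cell 13 was highest for SERF2-C15ORF63 at 304 TPM and was the 1 short cell with BCYRN1 at 0. Short cell 6 was also the lowest short cell for mitochondrial-like rows, at 4590 TPM. Spearman's rho between members over the 121 cells, a description of points that share the groups and gene numbers above, ranged from 0.08 for BCYRN1 and TNFAIP8L2-SCNM1 to 0.30 for MIR663A and TNFAIP8L2-SCNM1.

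**Figure D4:**
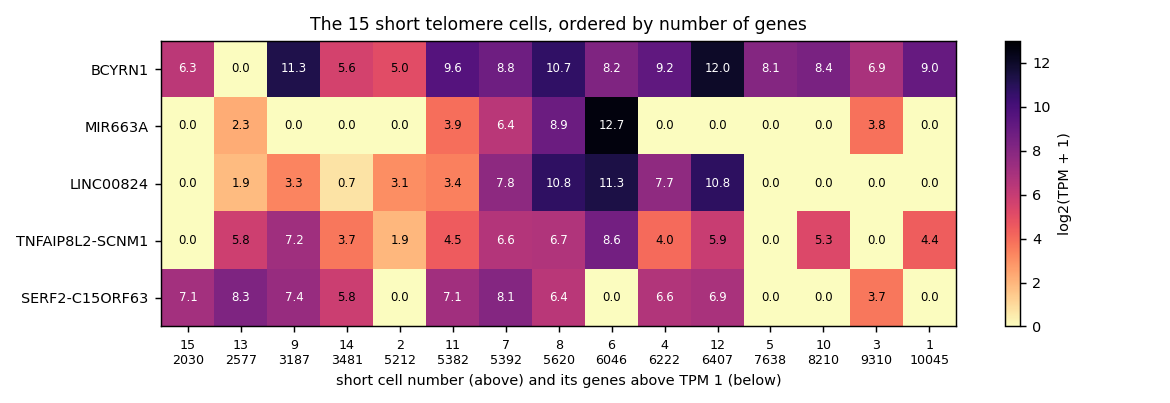
Level of each RNA, as log2(TPM + 1), in each of the 15 short telomere cells, ordered by their number of genes above TPM 1. Short cells 7, 8 and 11 carry all 5, and short cell 6 holds the highest MIR663A and LINC00824.

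The read-throughs stood differently to the genes they join. TNFAIP8L2 on its own was above TPM 1 in 1 long, 1 medium and 0 short cells, so 35 of the 36 TNFAIP8L2-SCNM1 carriers lacked it. SCNM1 was carried by 65 of 81 long, 23 of 25 medium and 8 of 15 short cells, with mean log2(TPM + 1) of 4.01 ± 2.3, 4.65 ± 1.9 and 3.25 ± 3.4. The read-through was carried without SCNM1 in 12 long, 2 medium and 7 short cells, and SCNM1 without the read-through in 57 long, 21 medium and 3 short cells. In most cells only 1 of these rows was thus above TPM 1.

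As a share of the TPM of the read-through and both joined genes, TNFAIP8L2-SCNM1 averaged 20.2% ± 37.9 over 77 long cells with any of the 3 rows, 9.69% ± 28.0 over 25 medium cells and 59.2% ± 42.7 over 15 short cells. With 8000 or fewer genes the shares were 40.2% in long and 57.4% in short cells, so the gap of 39.0 points narrowed to 17.2. With more than 8000 genes they were 8.81% over 49 long and 66.7% over 3 short cells.

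SERF2 was carried by all 121 cells and was the most abundant of these rows, with mean log2(TPM + 1) of 8.54 ± 0.77 in long, 8.69 ± 0.83 in medium and 9.39 ± 1.24 in short cells. HYPK was carried by 80 long, 25 medium and 13 short cells at 7.21 ± 1.19, 7.51 ± 1.05 and 6.51 ± 2.99. The short minus long difference was thus 0.86 for SERF2 and -0.70 for HYPK, against 2.59 for the read-through. SERF2-C15ORF63 was a small share of the 3 rows, 2.58% ± 4.36 in long, 3.32% ± 4.15 in medium and 7.08% ± 6.81 in short cells. With 8000 or fewer genes the shares were 3.71% and 8.57% in long and short cells, and with more than 8000 genes 1.92% and 1.11%.

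**Figure D5:**
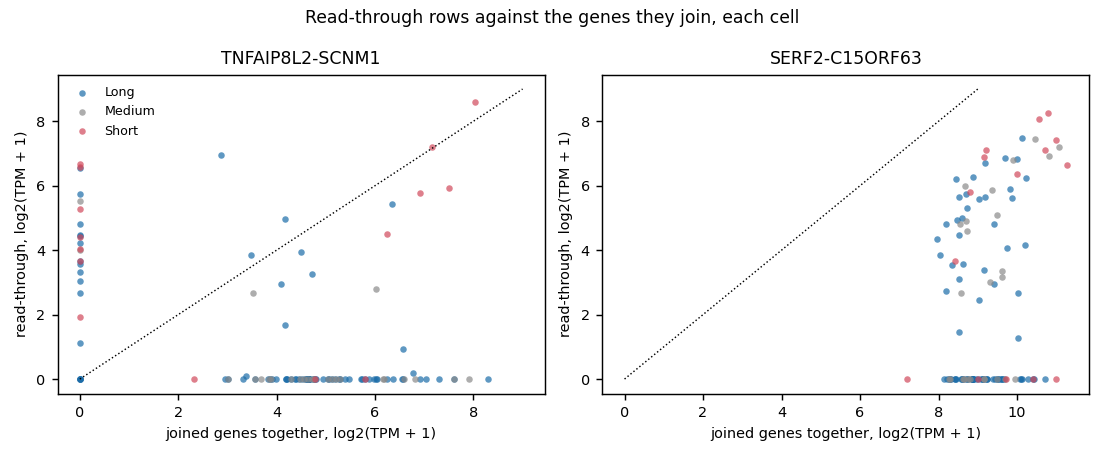
Read-through rows against the summed TPM of the genes they join, both as log2(TPM + 1), in each cell, coloured by telomere group, with a dotted line of equal values. TNFAIP8L2-SCNM1 is often above 0 where its joined genes are at 0 and the reverse, whereas SERF2-C15ORF63 lies below the sum of SERF2 and HYPK in every cell.

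The table holds 119 read-through rows, of which 69 were carried by at least 10 cells. Of the 67 that are not members, the level was higher in short cells in 11 and at least 1 higher in 1, with a median difference of -0.33. Among all 14327 rows carried by at least 10 cells, 21.4% were higher, 3.48% were at least 1 higher and the median was -0.62. The share of the read-through among the joined genes was higher in short cells for 24 of the 67, with a median difference of -0.96 points. By that difference in share TNFAIP8L2-SCNM1 came 2nd and SERF2-C15ORF63 10th of the 69. The share contains the level used in the choice, so these ranks are descriptions. Among the 17 read-through rows that passed the filter on the mean, the members were the 2 that were at least 1 higher, which follows from their choice. TNFAIP8L2-SCNM1 passed that filter only through the short cells, with a mean TPM of 63.2 there, 6.42 in long and 2.83 in medium cells. NME1-NME2 followed at 0.04. A long cell carried 24.4 ± 8.7 read-through rows and a short cell 14.3 ± 6.9.

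Of 1861 microRNA rows, 369 ever exceeded TPM 1 and 40 had a mean TPM of at least 10. Of these 40, 5 (12.5%) were at least 1 higher in short cells, beside 1.71% of the 6213 rows, and the median difference was -0.06. MIR663A is among these 5 by its choice. A row in few cells can pass the filter on the mean through a few high cells, as MIR663A did, so this count is a description. After MIR663A came MIR3652 at 2.07, carried by 22 long and 7 short cells, and MIR1273A at 1.98, carried by 39 long and 9 short cells. MIR1273A, like MIR5096 at 1.49, lies in repeated sequence: none of the 54 and 21 windows of 50 bases in their annotated genes had 1 place in the genome, with up to 14292 and 30898 places. All 82 windows of MIR3652 had 1 place. MIR663B was carried by 1 long, 0 medium and 2 short cells and differed by 0.83.

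Of 878 rows with a LINC symbol, 43 had a mean TPM of at least 10, with a median difference of -0.40. Of these 43, 8 (18.6%) were at least 1 higher in short cells, beside 1.71% of the 6213 rows. LINC00824 is among these 8 by its choice, and the limit of the filter given for the microRNA rows holds here too. LINC00485 followed LINC00824 at 2.14 and LINC00507 at 1.45. Like LINC00824, both were lower in the 3 short cells with more than 8000 genes, by -0.30 for each of them. A cell carried 109 ± 32 LINC rows in the long group and 106 ± 54 in the short group.

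Of 10 genes of proteins known to bind BC200 RNA, 9 were lower in short than in long cells, as were 90.9% of the 6213 rows. Their median difference was -1.69 beside -1.40 over all rows, and 8 were lower by at least 1. PCBP1, a poly(C)-binding protein, differed by -2.20, SYNCRIP, an RNA-binding protein, by -2.16 and EIF4A1, the helicase of translation initiation, by -2.09. PABPC1, the poly(A)-binding protein, differed by -0.70. SRP14, which with SRP9 binds the Alu fold, was the exception at 0.30, while SRP9 differed by -1.73.

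All 9 genes of microRNA processing were lower in short cells, with a median of -0.98. The list was not filtered on mean TPM, and each gene was carried by at least 35 cells. Over the 6213 rows the median was -1.40 and 90.9% were lower. Over the 14327 rows carried by at least 10 cells the median was -0.62 and 21.4% were higher. In cells with 8000 or fewer genes the list's median was -0.59, beside -1.03 and -0.31 over these sets of rows. There AGO2 and AGO3 differed by 0.02 and 0.01. DROSHA, the nuclear nuclease that cuts primary microRNAs, was at 3.30 ± 1.79 in long and 1.31 ± 1.67 in short cells, and DICER1, which cuts the hairpin, at 3.17 ± 1.54 and 1.35 ± 1.90. AGO2, the slicing Argonaute, was carried by 42 long and 2 short cells. Of the small structural RNAs made by RNA polymerase III or II, 8 of 13 listed had a row and 4 of these ever exceeded TPM 1. RMRP and RPPH1, the RNAs of RNase MRP and RNase P, differed by 0.71 and 0.78. RMRP was carried by 21 of 81 long and 4 of 15 short cells, and RPPH1 by 27 and 4. With more than 8000 genes, where only 3 short cells remain, they differed by 1.26 and -1.82. VTRNA1-3, a vault RNA, and TERC, the telomerase RNA, differed by -0.54 and -0.34. They had 9 and 8 carriers among 81 long cells and 0 among 15 short cells, so these differences rest on few carriers.

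Of the rows within 250 kb of a member that at least 10 cells carried, 0 of 4 around BCYRN1, 1 of 2 around MIR663A, 0 of 1 around LINC00824, 1 of 18 around TNFAIP8L2-SCNM1 and 4 of 12 around SERF2-C15ORF63 were higher in short cells, beside 21.4% of all rows carried that often. The median differences of these neighbours were -1.11 for BCYRN1, 0.36 for MIR663A, -0.93 for LINC00824, -0.65 for TNFAIP8L2-SCNM1 and -0.49 for SERF2-C15ORF63, beside -0.62. Next to BCYRN1, the epithelial adhesion gene EPCAM differed by -3.27 and the calmodulin gene CALM2 by -0.74. PVT1, the long non-coding RNA near LINC00824, differed by -0.93. MIR663AHG, which contains MIR663A, was carried by 11 long and 4 short cells, differed by 0.93 and shared 4 cells with MIR663A. BNIPL near TNFAIP8L2-SCNM1 and PIN4P1 near SERF2-C15ORF63 were the neighbours with a difference of at least 1, at 1.04 and 1.10.

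The rows most like each RNA were found by Pearson's r of log2(TPM + 1) over the 121 cells, among 14327 rows carried by at least 10 cells, and are descriptions of cells that share groups and gene numbers. ORAI2, a calcium channel subunit, was most like BCYRN1 at 0.47, followed by SHANK2-AS3 at 0.43 and LYZ, lysozyme, at 0.42. For MIR663A, PLIN5, a lipid droplet protein, came first at 0.76, followed by LINC01247 at 0.73 and FADS6 at 0.71. These rest on few cells, since PLIN5 shared 5 carriers with MIR663A, and without the highest cell r was 0.62.

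For LINC00824, C5orf64 at 0.73, KIAA1875 at 0.72 and LOC339059 at 0.72 came first, and C5orf64 shared 19 carriers and kept 0.67 without the highest cell. TNFAIP8L2-SCNM1 had no close match, with SLC9A4, a sodium-proton exchanger, at 0.48, ADAMTSL2 at 0.47 and LOC101927069 at 0.47. SERF2-C15ORF63 was the 1 member whose matches were carried by all 121 cells, namely NDUFA13, a subunit of respiratory complex I, at 0.57, the cytokine MIF at 0.55 and UQCR10, a subunit of complex III, at 0.54. These 3 rows were themselves lower in cells with more genes, with r of -0.66, -0.59 and -0.46.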

How the data were processed

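Cells of hESC line WA26 were profiled by a method based on Smart-seq2. The authors deposited TPM values with 2 decimals for 121 cells, 1 column per cell. Per the study's methods, 50-base single-end reads were mapped to hg19 with TopHat and counted per RefGene gene with HTSeq, and counts were normalised by library size with a size factor function. The submitters' processing notes name TopHat2 and RSEM instead, so the route to the deposited TPM is uncertain. The 25610 rows read end at ZFR, and later symbols, 1 cut row and the T/R ratios were not used here. TPM summed to 979828 to 997050 per cell. TPM scales within a cell and by gene length, and a short row gains much TPM from few reads.

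Cells were grouped by sample title. Values were analysed as log2(TPM + 1), which understates changes of low rows, or as carriers above TPM 1, with exact Clopper-Pearson intervals. The split at 8000 genes was chosen after values were seen. The members and lists were chosen with earlier results of these data known. Named rows are the members, the joined genes, rows within 250 kb, the 3 rows most like each member, listed genes and the 3 highest rows of each class. Alternatives covered pseudocounts of 0.1 and 10, medians, thresholds of 0 and 10, gene number, scaling and single cells. Calculations were tested on simulated data. Python 3.11.15, numpy 2.4.6, pandas 2.3.3, scipy 1.17.1 and matplotlib 3.10.9 were used. Positions and sequences came from GRCh37 with GENCODE v44 lifted to it, and from RefSeq.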

Additional observations from a re-analysis of the deposited data

How the results depend on the processing

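Of 189 alternative values, 163 stayed within limits of 1 on the log2 scale, 15 percentage points, 0.1 in rho or 1.5 times of the reported value with the same sign, 20 moved further and 6 changed sign. Among the 163 are all values that leave out a single short cell, for each of the 5 RNAs. Dropping 1 of 15 cells moves a mean only a little, so these could hardly leave the limit. The tally is thus no measure of how firm the results are. With more than 8000 genes, where only 3 short cells remain, LINC00824 (-0.81 on the log2 scale, -35.3 points of carriers) and SERF2-C15ORF63 (-0.24, -1.96 points, -0.81 points of read-through share) changed sign, MIR663A was at 1.28 and the read-through share of TNFAIP8L2-SCNM1 at 57.9 points. With 8000 or fewer genes that share was at 17.2 points. The long cells nearest in gene number gave 1.12 and 6.67 points for SERF2-C15ORF63. Pseudocounts of 0.1 and 10 gave 3.62 and 1.35 for MIR663A and 5.06 and 1.63 for TNFAIP8L2-SCNM1. Medians gave 0 for MIR663A, 4.51 for TNFAIP8L2-SCNM1 and 6.37 for SERF2-C15ORF63. For the correlation with gene number, short cells alone gave 0.30 for BCYRN1, which changed sign, -0.024 for MIR663A, -0.11 for TNFAIP8L2-SCNM1 and -0.63 for SERF2-C15ORF63, long cells alone gave -0.14 for LINC00824 and -0.22 for SERF2-C15ORF63, and genes above TPM 0 gave -0.24 for SERF2-C15ORF63. Taking rows above TPM 1 in at least 5 cells, 3.18% of rows were at least 1 higher in short cells. Leaving out short cells 8 and 12, an alternative chosen after seeing the data, gave 1.95 for LINC00824. The cause of these changes was not tested.

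Leaving out each short cell in turn gave 2.22 to 3.08 for BCYRN1, 1.68 to 2.58 for MIR663A, 2.47 to 3.28 for LINC00824, 2.99 to 3.60 for TNFAIP8L2-SCNM1 and 2.32 to 2.91 for SERF2-C15ORF63. Dividing by the median ratio over rows above 0 in every cell moved the median short minus long difference of all rows by 0.42 and put 298 rows at 1 or more, against 106. No paired analysis was possible because the numbers in the titles only count cells within a group and no result comes from a test. TPM holds no counts, so error from sequencing depth is not covered.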
